A study of Equus caballus with 45 samples.

Results

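The poly(ADP-ribose) polymerase genes that interferon is known to induce, PARP9, PARP12 and PARP14, and DTX3L, the gene of the partner protein of PARP9, were followed through RNA sequencing counts of equine mesenchymal stromal cells (MSC) and of synoviocytes, chondrocytes and macrophages. PARP1, the family member that cells express constitutively, served as the contrast. Genes were chosen by symbol from a list of 6, of which 5 were analysed among the 20881 protein coding genes of each count table. PARP10 was not analysed here.

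PARP enzymes move ADP-ribose from NAD+ onto proteins. PARP1 binds DNA breaks and builds long ADP-ribose chains there, whereas PARP12 and PARP14 attach single ADP-ribose units and PARP9, which reads ADP-ribose through its macrodomains, acts as a pair with DTX3L, an E3 ubiquitin ligase of the Deltex family. In many mammalian cells type I interferon, made when sensors such as TLR3 or STING detect foreign or misplaced nucleic acid, raises the transcripts of these genes through its receptors, and their products take part in antiviral defence and in the control of macrophage activation.

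MSC from bone marrow of 3 healthy young adult horses (donors PC, 99 and 92) gave 1 library per donor untreated, after the TLR3 agonist poly I:C, after the STING agonist 2′3′-cGAMP and under the label CPG, a condition that the study's text does not describe. Both agonists were given for 2 h at a labelled 10 ng/mL (the study's design text gives a larger unit, so the dose is uncertain), and the MSC were washed and cultured for 24 h more. Joint cells of 1 healthy horse received for 24 h the conditioned medium (CM) that MSC of donors PC, ORC and AG1 had made. The MSC had been at rest or given either agonist, here resting MSC-CM, TLR-MSC-CM and STING-MSC-CM. These joint cells were all given IL-1β plus TNF-α, and were cultured for another 24 h after the medium. The labelled cytokine dose was 20 ng/mL each for synoviocytes and 10 ng/mL each for macrophages, with none for chondrocytes. The study's text gives 20 ng/mL for macrophages too, so their dose is uncertain. Each cell type also had 1 library with the cytokines alone and 1 under the label NO_ADD, which makes 12 MSC libraries and 33 joint cell libraries. The labels do not say whether ORC and AG1 are the same horses as 99 and 92. Replicates of joint cells differ in the MSC donor of the medium and not in the joint cell animal, so their p-values measure only that spread. Poly-A RNA was sequenced in bulk, in which fewer cells of a type and less RNA per cell cannot be told apart.

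Total counts ran from 23525704 to 54103873 per library. A count of 3, taken as the floor, equalled 0.0554 to 0.128 CPM (the count relative to the size of its library), and the lowest count of any of the 5 genes in any library was 133. The leukocyte marker PTPRC had a median of 1284 CPM in macrophages and reached at most 0.242 CPM in MSC, 0.191 CPM in synoviocytes and 0.161 CPM in chondrocytes. Of the chondrocyte markers, ACAN (median 14.9 CPM) and COMP (26.8 CPM) were present in the chondrocytes, whereas the cartilage collagen COL2A1 (0.0529 CPM) and COL9A1 (0 CPM) were at or under the floor. SOX9 had a median of 10.2 CPM in chondrocytes and 4.75 CPM in synoviocytes, but 30.1 CPM in MSC, so it was not highest in chondrocytes. In synoviocytes PDPN was at 96.2 CPM, as high as in chondrocytes (99.3 CPM), and HAS1 (0.833 CPM) and CD55 (0.503 CPM) were low.

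In untreated MSC, PARP9 stood at 10.2 CPM in donor PC, 14.6 in donor 99 and 8.66 in donor 92. After the TLR3 agonist the same donors held 167, 68.4 and 8.23 CPM, and after the STING agonist 138, 88.0 and 108.1 CPM. The values after both agonists thus lay far above the untreated range, except that donor 92 stayed at its untreated level after the TLR3 agonist. DTX3L, the ligase partner, went from 4.73, 5.37 and 4.01 CPM untreated to 64.0, 15.8 and 3.69 CPM after the TLR3 agonist and to 48.1, 27.3 and 40.4 CPM after the STING agonist, in the same order of donors. It followed the pattern of PARP9 donor by donor, and the single TLR3 library of donor 92 again stayed near its untreated level.

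PARP14, a large macrodomain enzyme that adds single ADP-ribose units, had 36.9, 47.9 and 32.5 CPM in untreated MSC of donors PC, 99 and 92. It had 372, 96.2 and 34.5 CPM after the TLR3 agonist and 265, 116 and 148 CPM after the STING agonist. Donor PC gave the highest PARP14 value under both agonists. PARP12, a zinc-finger enzyme known to limit the replication of RNA viruses, had 34.1, 32.8 and 37.7 CPM untreated, 294, 174 and 38.1 CPM after the TLR3 agonist and 228, 222 and 184 CPM after the STING agonist. Its untreated and STING values were the closest together across donors, and the TLR3 value of donor 92 exceeded the highest untreated value by less than 1 CPM.

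**Figure D1:**
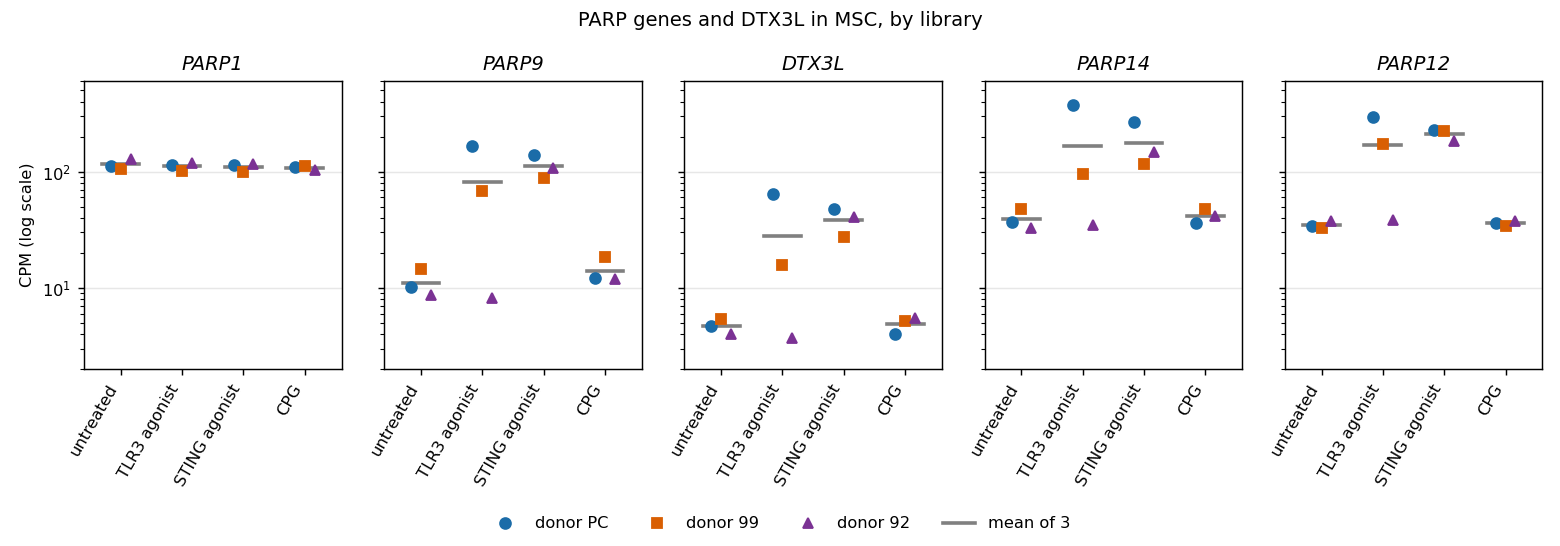
CPM on a log scale of PARP1, PARP9, DTX3L, PARP14 and PARP12 in the 12 MSC libraries, by condition; each symbol is 1 donor and each bar the mean of 3 donors. After the TLR3 agonist donor 92 sits at its untreated level (8.23 CPM of PARP9), while after the STING agonist all 3 donors sit above every untreated library in the 4 interferon-induced genes and PARP1 stays between 98.8 and 116 CPM.

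PARP1, the DNA break sensor, was level throughout: 112, 106 and 127 CPM untreated, 115, 101 and 119 CPM after the TLR3 agonist and 113, 98.8 and 116 CPM after the STING agonist. In a fit over the 9 untreated and agonist libraries by edgeR's quasi-likelihood test, PARP1 differed from untreated MSC by a log2 fold change of −0.01 (SE 0.150) with the TLR3 agonist and of −0.04 (SE 0.150) with the STING agonist. Both groups overlapped with the untreated libraries.

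Against untreated MSC, the log2 fold change after the TLR3 agonist was 2.89 (SE 0.845) for PARP9, 2.59 (SE 0.836) for DTX3L, 2.13 (SE 0.753) for PARP14 and 2.31 (SE 0.590) for PARP12. The 4 genes had unadjusted p-values of 0.00819, 0.0135, 0.0210 and 0.00393 in that order, and an adjusted p of 1.00 each by edgeR after Benjamini-Hochberg adjustment over 14872 genes. So 0 of the 4 passed the adjusted threshold of 0.05, as did 0.00% of all genes in either direction, although 149 genes were higher with an unadjusted p under 0.05 (1.00%) and 22 lower. All 4 were among the former. At an unadjusted p of at most 0.05 with a log2 fold change of at least 2, all 4 passed, against 0.719% of all genes that were higher. DESeq2 called 1 of the 4, PARP12 (adjusted p = 0.0341, with 48 genes called in all). With the donor as a block, edgeR gave 2.45 for PARP9, 2.06 for DTX3L, 2.04 for PARP12 and 1.59 for PARP14, so PARP14 no longer reached a log2 fold change of 2, and DESeq2 no longer called PARP12 (adjusted p = 0.274, with 47 genes called in all). These values depended on the library of donor 92. Without its TLR3 agonist library the log2 fold change was 3.41 for PARP9 (adjusted p = 0.0199) and 2.75 for PARP12 (adjusted p = 0.00663) by edgeR, with 51 genes called in all, 2.59 for PARP14 and 3.09 for DTX3L. Without the library of donor PC instead it was 1.83 for PARP9, 1.10 for DTX3L, 0.79 for PARP14 and 1.65 for PARP12. Over all alternatives the adjusted p ran from 0.0199 to 1.00 for PARP9 and from 0.00663 to 1.00 for PARP12.

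The donors spread widely after the TLR3 agonist. In donor PC the ratio to the same donor's untreated library was 16.4 for PARP9, 13.5 for DTX3L, 10.1 for PARP14 and 8.63 for PARP12. In donor 99 the ratios were 4.69, 2.95, 2.01 and 5.30, so that PARP12, with the smallest ratio in PC, had the largest in 99. In donor 92 they were 0.950, 0.919, 1.06 and 1.01. The median log2 ratio of the 4 genes was 3.55, 1.90 and −0.03 in PC, 99 and 92. Groups did not overlap for 1 of the 4, PARP12, against 0.767% of all genes that were higher without overlap. Of the 4 genes, PARP12 and PARP14 were higher in 3 of 3 donors, as were 6.45% of all genes. The PARP12 levels gave p = 0.1 in an exact permutation test (two-sided), the smallest that 3 libraries against 3 allow.

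The same donor 92 library also stayed near its untreated level in the regulators known to drive these genes. IRF7, the interferon regulatory factor that amplifies interferon production, was at 5.29 CPM in donor 92 after the TLR3 agonist against 5.25 CPM untreated, and at 862 and 526 CPM in PC and 99. IRF9, a transcription factor of the interferon response, was at 21.8 CPM there against 27.6 CPM untreated, and at 213 and 214 CPM in PC and 99. After the STING agonist donor 92 held 433 CPM of IRF7 and 165 CPM of IRF9. Its TLR3 library was of ordinary depth, with 35184930 counts. What sets this library apart was not tested.

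After the STING agonist the log2 fold change was 3.36 (SE 0.862) for PARP9, 3.07 (SE 0.853) for DTX3L, 2.21 (SE 0.756) for PARP14 and 2.63 (SE 0.597) for PARP12, each higher in 3 of 3 donors. Every STING library stood above every untreated library in all 4 genes, against 3.13% of all genes that were higher without overlap and 11.8% that were higher in 3 of 3 donors. The unadjusted p-values by edgeR were 0.00405, 0.00626, 0.0180 and 0.00193, and the adjusted p was 1.00 each. Again 0 of the 4 passed the adjusted threshold, as did 0.00% of all genes, with 252 higher (1.69%) and 60 lower genes at an unadjusted p under 0.05, the 4 being among the higher ones. All 4 passed the unadjusted p of 0.05 with a log2 fold change of 2, against 0.914% of all genes that were higher.

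DESeq2 on the same libraries called 3 of the 4 after the STING agonist, with an adjusted p of 0.00397 for PARP9, 0.0172 for DTX3L and 0.00230 for PARP12 and of 0.281 for PARP14, with 93 genes called in all. Over all alternatives the adjusted p ran from 0.00397 to 1.00 for PARP9, from 0.0169 to 1.00 for DTX3L and from 0.00230 to 1.00 for PARP12. With the donor as a block, edgeR gave 3.37 for PARP9 (adjusted p = 0.119), 3.04 for DTX3L (0.135), 2.05 for PARP14 (0.211) and 2.58 for PARP12 (0.115). With the same block DESeq2 again called PARP9 (adjusted p = 0.00788), DTX3L (0.0169) and PARP12 (0.00604), with 355 genes called in all. The choice of tool thus decided the adjusted call of PARP9, DTX3L and PARP12. Leaving out any 1 library kept the log2 fold change between 3.15 and 3.60 for PARP9 and between 2.55 and 2.71 for PARP12. For DTX3L it lay between 2.86 and 3.25. For PARP14 it ran from 1.77 to 2.41, with the lowest value, below 2, without the STING library of donor PC.

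The donors answered the STING agonist more evenly than the TLR3 agonist. The median log2 ratio of the 4 genes was 3.10 in PC, 2.47 in 99 and 2.81 in 92, and the median of their fitted changes was 2.85, against 0.01 over all genes tested. For the TLR3 agonist that median was 2.45, against 0.02 over all genes. The comparisons share the untreated libraries. Set directly against the TLR3 agonist libraries, the STING agonist libraries had a median log2 fold change of the 4 genes of 0.39, and 0 of the 4 passed the adjusted threshold (edgeR; 0.00% of all genes; 0 of the 4 by DESeq2) or was higher with an unadjusted p under 0.05 (0.128% of all genes). PARP9 after the STING agonist was 0.829 times its TLR3 value in PC, 1.29 times in 99 and 13.1 times in 92. The agonists thus differed most in donor 92, with 1 library per agonist, and not in a shared direction across donors.

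The 3 MSC libraries labelled CPG stayed near the untreated ones. PARP9 was at 12.1, 18.4 and 11.8 CPM, DTX3L at 4.06, 5.19 and 5.48 CPM, PARP14 at 36.1, 47.9 and 41.5 CPM and PARP12 at 36.5, 33.8 and 37.3 CPM in donors PC, 99 and 92. The median log2 fold change of the 4 genes was 0.08, and 0 of them passed the adjusted threshold (edgeR; 0.00% of all genes; 0 genes by DESeq2) or was higher with an unadjusted p under 0.05 (0.185% of all genes).

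Because PARP1 was level, the ratio to PARP1 within a library gives the change free of library scaling. The mean log2 ratio of PARP9 to PARP1 moved from −3.34 (SD 0.491, n = 3) in untreated MSC to 0.01 (SD 0.243) after the STING agonist and to −1.27 (SD 2.24) after the TLR3 agonist. For PARP12 it moved from −1.71 (SD 0.032) to 0.95 (SD 0.255) after the STING agonist and to 0.17 (SD 1.58) after the TLR3 agonist. The STING and untreated ratios did not overlap for any of the 4 genes (two-sided exact permutation p = 0.1, the smallest possible), and the TLR3 and untreated ratios overlapped for all but PARP12 (exact p = 0.1 for PARP12, 0.3 for PARP9).

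Other genes of ADP-ribosylation and of interferon signalling were read beside these. Of 12 further PARP family genes, 2 passed the unadjusted p of 0.05 with a log2 fold change of 2 after each agonist. ZC3HAV1, a catalytically inactive family member that binds viral RNA, passed with a log2 fold change of 2.25 for the TLR3 agonist and 2.73 for the STING agonist. Its 3 untreated libraries held 3.92, 5.59 and 6.90 CPM, its TLR3 libraries 49.1, 17.7 and 9.51 CPM and its STING libraries 42.8, 27.8 and 35.8 CPM. Neither agonist group overlapped with the untreated one, where 0.767% (TLR3) and 3.13% (STING) of all genes were higher without overlap. PARP15, which lies beside PARP14 in the genome, had 7, 16 and 0 counts untreated in PC, 99 and 92, 645, 155 and 1 counts after the TLR3 agonist and 229, 212 and 56 counts after the STING agonist, with fitted log2 fold changes of 4.64 and 4.39. For PARP15 donor 92 again stayed at the floor after the TLR3 agonist.

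The other 10 of the 12 did not pass. The median log2 fold change of the 12 genes was 0.10 for the TLR3 agonist and 0.15 for the STING agonist. Of 10 tested ADP-ribose hydrolases and Deltex relatives, enzymes that remove ADP-ribose or share the ligase fold of DTX3L, 0 passed the unadjusted p of 0.05 with a log2 fold change of 2 (edgeR; medians 0.06 and 0.09). Among the interferon receptor and signalling genes, 3 of 12 passed after each agonist, against 0.719% and 0.914% of all genes that were higher. Of the 3, IRF7 (5.36 and 6.88) and IRF9 (2.60 and 3.07) are given here, with the TLR3 value first. The medians over the 12 genes were 0.14 and 0.21. By adjusted p, 0 genes of any of these lists passed in edgeR, while DESeq2 called IRF7, IRF9 and ZC3HAV1 after each agonist.

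PARP9, DTX3L and PARP14 are neighbours in the horse genome. In the RefSeq annotation of the TB-T2T assembly, used for gene order only, PARP14, PARP15, DTX3L and PARP9 follow each other on chromosome 19, and the annotated spans of DTX3L and PARP9 overlap. Whether the counting used the strand is not given in the sources used here, so reads from the overlap of DTX3L and PARP9 cannot be told apart by origin. PARP12 lies on chromosome 4 and PARP1 on chromosome 30.

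Across the 12 MSC libraries, log2(CPM + 1) of PARP9 and DTX3L had a Pearson's r of 0.984 (Spearman's rho 0.937), the highest r among the pairs of the 5 genes. PARP14 and DTX3L had an r of 0.982 and the highest rho, 0.972. PARP12, on another chromosome, had 0.973 with PARP9 and a rho of 0.629. PARP1 had −0.23 to −0.10 with the other genes. These are descriptions over libraries that share donors and conditions. Of 11818 genes with a mean of at least 1 CPM, the named gene closest to the mean profile of the 4 in MSC was TRIM22, a tripartite motif protein (r = 0.991), followed among named genes by RBCK1, a subunit of the linear ubiquitin ligase (0.987), and PML, the organiser of nuclear bodies (0.987).

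**Figure D2:**
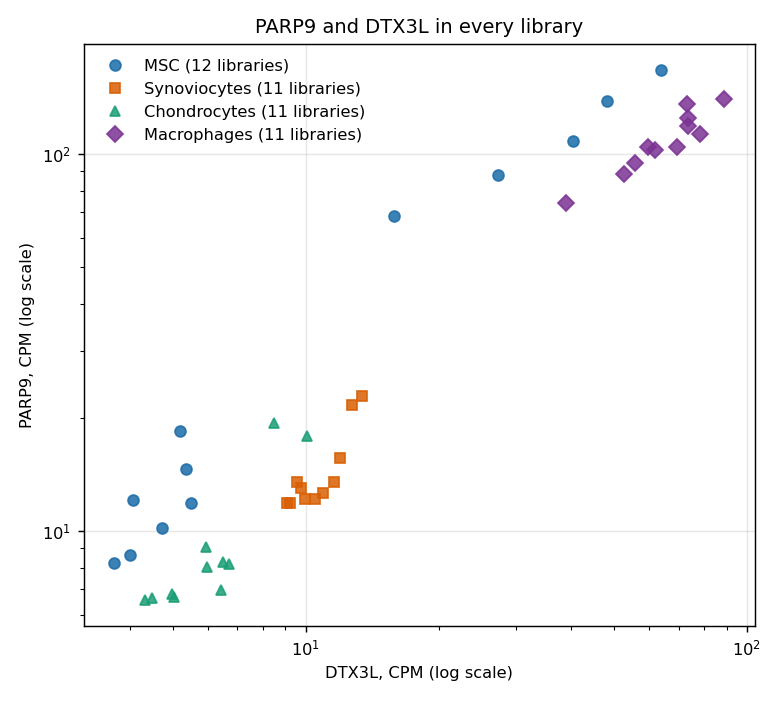
PARP9 against DTX3L in all 45 libraries, both in CPM on log scales and scaled within the MSC table or the joint cell table; each symbol is 1 library. The untreated and CPG libraries of MSC lie at the lower left with the TLR3 library of donor 92, the activated MSC lie at the upper right, and the 11 macrophage libraries sit between 38.9 and 88.9 CPM of DTX3L.

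In the joint cells the largest differences lay between cell types. With resting MSC-CM, PARP9 was at 119, 113 and 73.9 CPM in macrophages, 11.8, 12.2 and 12.2 CPM in synoviocytes and 6.80, 6.96 and 6.64 CPM in chondrocytes, with media of donors PC, ORC and AG1. DTX3L was at 73.7, 78.2 and 38.9 CPM in macrophages, 9.24, 10.5 and 9.97 CPM in synoviocytes and 4.98, 6.44 and 4.50 CPM in chondrocytes. No pair of cell types overlapped for either gene, but the share of all genes without such overlap was not counted. By edgeR, 35.8% of all genes were higher and 34.4% lower in macrophages than in synoviocytes at an adjusted p under 0.05. In chondrocytes against synoviocytes 11.1% were lower. Macrophages carried the most of both and chondrocytes the least. PARP12 had the same order, at 112, 142 and 82.4 CPM in macrophages, 24.3, 30.0 and 23.9 CPM in synoviocytes and 13.6, 16.4 and 15.1 CPM in chondrocytes. PARP14 was at 180, 153 and 128 CPM in macrophages but overlapped between synoviocytes (58.2, 52.2 and 53.6 CPM) and chondrocytes (61.5, 57.0 and 48.8 CPM). PARP1 had the reverse order, at 67.7, 62.2 and 51.8 CPM in macrophages, 76.6, 80.1 and 73.8 CPM in synoviocytes and 80.8, 106 and 77.0 CPM in chondrocytes.

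In a fit over the 27 joint cell libraries with MSC-CM, macrophages exceeded synoviocytes by a log2 fold change of 3.06 (SE 0.275) for PARP9, 2.67 (SE 0.243) for DTX3L, 2.09 (SE 0.214) for PARP12 and 1.48 (SE 0.159) for PARP14 (edgeR, largest adjusted p = 1.7e-08, for PARP14). All 4 were higher, which is to be read against 35.8% of all genes. Against chondrocytes the differences were 3.89 (SE 0.288) for PARP9, 3.57 (SE 0.256) for DTX3L, 2.88 (SE 0.222) for PARP12 and 1.45 (SE 0.159) for PARP14 (edgeR, largest adjusted p = 2.42e-08, for PARP14), where again 35.8% of all genes were higher. PARP1 was lower in macrophages, by −0.36 (SE 0.135, adjusted p = 0.0225) against synoviocytes and −0.55 (SE 0.135, adjusted p = 0.000877) against chondrocytes, with 34.4% and 33.9% of all genes lower.

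Chondrocytes had less PARP9 (log2 fold change −0.82, SE 0.273, adjusted p = 0.0342), DTX3L (−0.91, SE 0.247, adjusted p = 0.0104) and PARP12 (−0.79, SE 0.213, adjusted p = 0.00923) than synoviocytes by edgeR, so 3 of the 4 were lower where 11.1% of all genes were. PARP14 differed by 0.03 (SE 0.157, adjusted p = 0.954) and PARP1 by 0.20 (SE 0.135, adjusted p = 0.331). These levels rest on the cells of 1 horse. Of the macrophage markers, CD163 was at 0 CPM in every chondrocyte library and at most 0.134 CPM in synoviocytes. PTPRC and CSF1R were at or near the floor in both. CD68, CD14 and ITGAM were not absent, with medians of 14.5, 1.08 and 0.631 CPM in chondrocytes and 12.3, 0.953 and 0.320 CPM in synoviocytes. In macrophages the same genes had medians of 3731, 25.3 and 4.29 CPM.

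**Figure D3:**
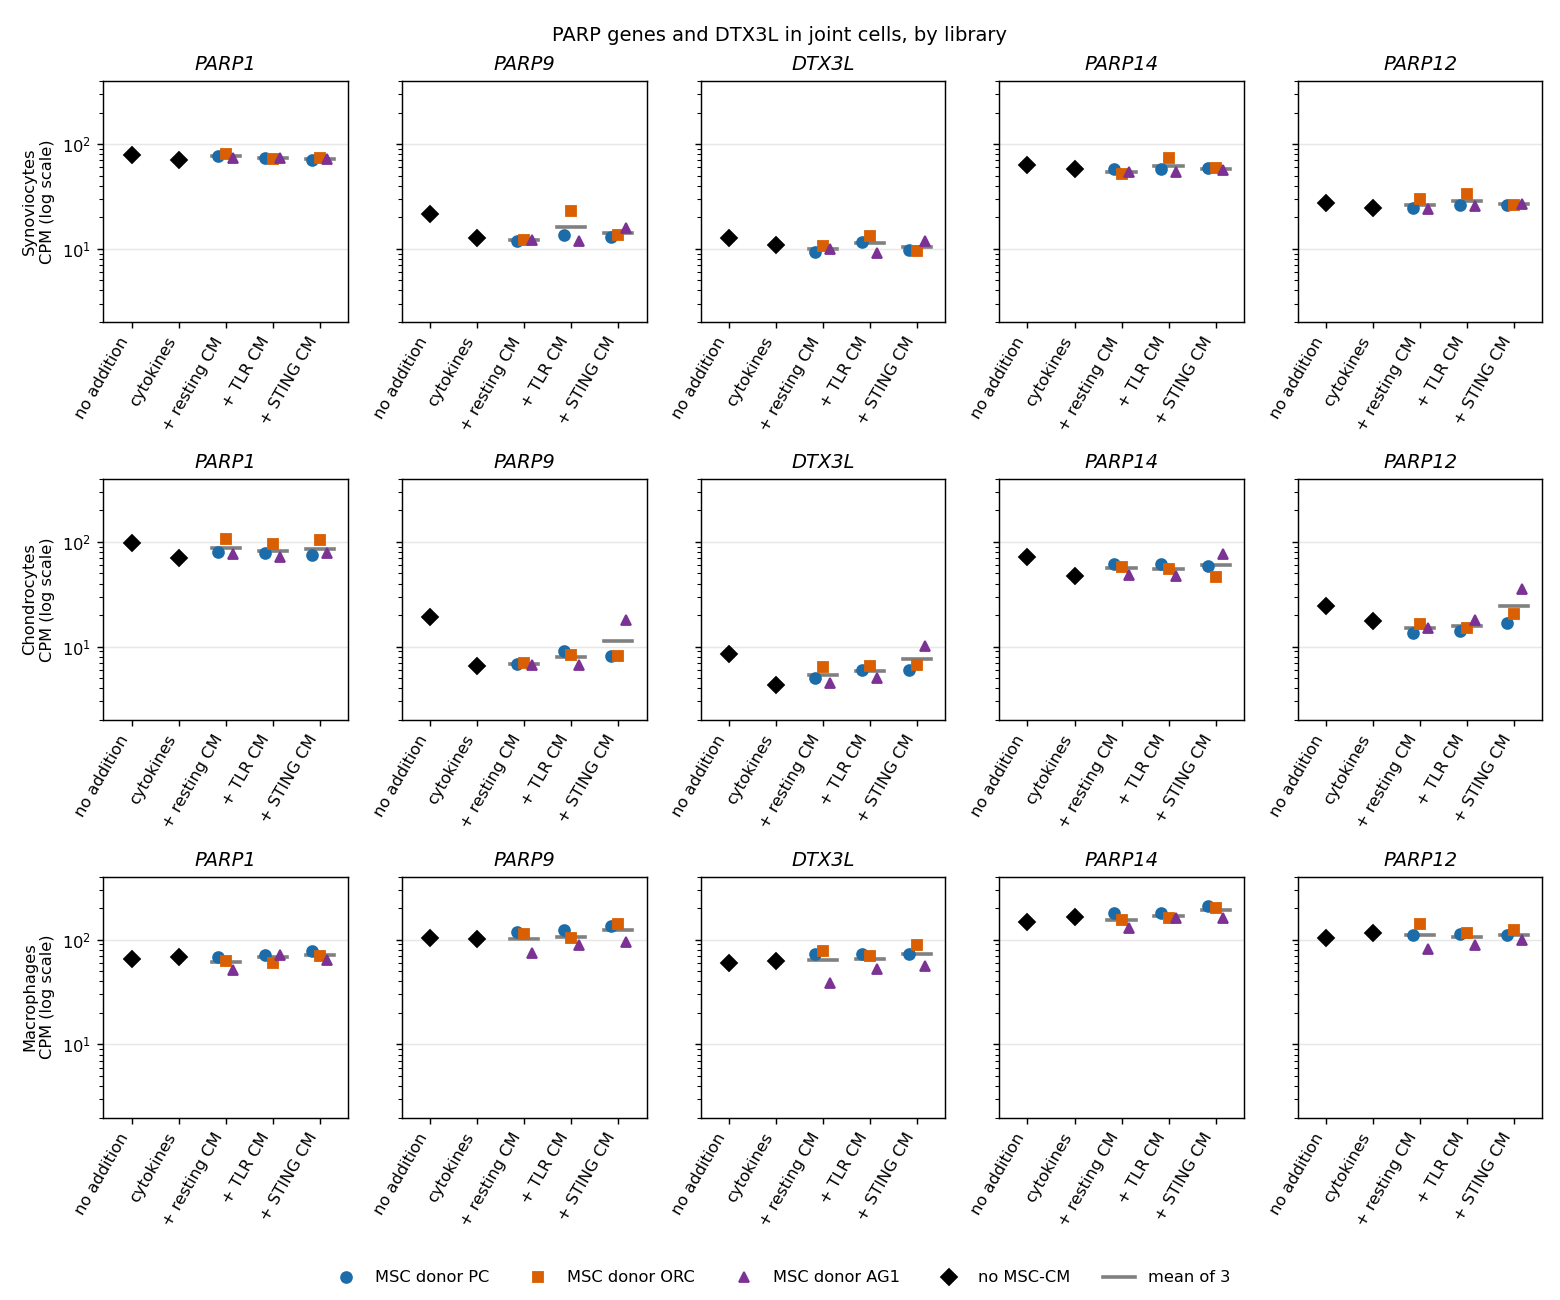
CPM on a log scale of the 5 genes in the 33 joint cell libraries, 1 row per cell type; coloured symbols are libraries with medium of 1 MSC donor, bars are means of 3, and black diamonds are the single libraries labelled NO_ADD (drawn as no addition) or with cytokines alone. PARP9, DTX3L and PARP12 sit highest in macrophages and lowest in chondrocytes, and in chondrocytes the library with STING-MSC-CM of AG1 (17.8 CPM of PARP9) stands above the other 2.

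With the media of activated MSC the differences were much smaller than those after the agonists in MSC. The MSC had met the agonists directly, whereas the joint cells received MSC-CM that the study had diluted in culture medium. These sizes are therefore not compared at a like dose, and the part of dose was not tested. In synoviocytes, the fibroblast-like cells of the joint lining, PARP9 was at 13.5, 22.8 and 11.8 CPM with TLR-MSC-CM of PC, ORC and AG1 and at 12.97, 13.5 and 15.6 CPM with STING-MSC-CM, against 11.8, 12.2 and 12.2 CPM with resting MSC-CM. The value of 22.8 CPM stood apart from the other synoviocyte libraries with MSC-CM, while the single NO_ADD library of synoviocytes held 21.6 CPM. PARP14 was at 58.2, 74.1 and 53.9 CPM with TLR-MSC-CM, and DTX3L at 11.6, 13.4 and 9.08 CPM, so the ORC library was the highest for both. The log2 fold change with TLR-MSC-CM was 0.39 (SE 0.184) for PARP9 and 0.17 (SE 0.097) for PARP14, with adjusted p-values of 0.497 and 0.536 by edgeR.

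Without the ORC library the TLR-MSC-CM change was 0.07 for PARP9 and 0.03 for PARP14, so this library decided both values. That library also held more IRF7 (20.6 CPM, against 7.43 and 9.51 CPM in the PC and AG1 libraries) and IRF9 (46.1 CPM, against 25.9 and 26.8 CPM), and it had 26415910 counts, close to the 26431324 of the AG1 library. The part of these values in the result was not tested. The median log2 fold change of the 4 genes was 0.18, or 0.05 without the ORC library. Of the 4, 0 passed the adjusted threshold (edgeR and DESeq2; 0.00% of all genes in edgeR) and 0 had an unadjusted p under 0.05, against 4.94% of all genes that were higher.

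With STING-MSC-CM the change in synoviocytes was 0.22 (SE 0.185, adjusted p = 0.744 by edgeR) for PARP9. All 3 libraries lay above all 3 resting libraries, which held for PARP9 alone of the 4 genes and for 7.36% of all genes that were higher. PARP1 was at 70.5, 73.3 and 71.4 CPM against 76.6, 80.1 and 73.8 CPM, lower in 3 of 3 donors without overlap, a log2 difference of −0.11 (SE 0.0602, adjusted p = 0.639 by edgeR), where 6.82% of all genes were lower without overlap. The median of the 4 genes was 0.08. Again 0 of the 4 passed the adjusted threshold (edgeR and DESeq2; 0.00% of all genes in edgeR) and 0 had an unadjusted p under 0.05, against 3.65% of all genes that were higher.

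In chondrocytes, the matrix-producing cells of cartilage, STING-MSC-CM came with higher PARP9, at 8.05, 8.16 and 17.8 CPM with media of PC, ORC and AG1 against 6.80, 6.96 and 6.64 CPM with resting MSC-CM. PARP12 was at 17.0, 20.3 and 35.7 CPM against 13.6, 16.4 and 15.1 CPM, and DTX3L at 5.99, 6.69 and 10.1 CPM against 4.98, 6.44 and 4.50 CPM. PARP14 was at 59.4, 46.6 and 76.2 CPM against 61.5, 57.0 and 48.8 CPM. The library of each donor exceeded the resting library of the same donor for PARP9, PARP12 and DTX3L, as it did for 1723 of 14304 genes, and the AG1 medium gave the highest value of each gene except PARP1.

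The log2 fold change with STING-MSC-CM was 0.75 (SE 0.293) for PARP9, 0.70 (SE 0.249) for PARP12, 0.52 (SE 0.230) for DTX3L and 0.12 (SE 0.177) for PARP14. Unadjusted p-values of 0.0314, 0.0201 and 0.0482 stood beside an adjusted p of 1.00 for PARP9, PARP12 and DTX3L by edgeR, so 0 of the 4 passed the adjusted threshold (0 by DESeq2, 0.00% of all genes by edgeR) and 3 of the 4 had an unadjusted p under 0.05, against 0.650% of all genes that were higher. Groups did not overlap for PARP9 and PARP12, against 2.05% of all genes that were higher. PARP1, at 75.6, 105 and 77.7 CPM against 80.8, 106 and 77.0 CPM, changed by −0.03 (SE 0.173).

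The size of this change came from the AG1 library. The ratio to the same donor's resting library was 2.69 for PARP9, 2.37 for PARP12 and 2.24 for DTX3L with AG1 medium, 1.18, 1.25 and 1.20 with PC medium and 1.17, 1.24 and 1.04 with ORC medium. Without the AG1 library the log2 fold change was 0.25 for PARP9, 0.31 for PARP12, 0.26 for DTX3L and −0.08 for PARP14, and the median of the 4 was 0.25 in place of 0.61. In the AG1 library IRF7 was at 25.6 CPM (4.42 and 3.06 CPM with PC and ORC medium), IRF9 at 59.7 CPM (24.8 and 24.8 CPM) and ZC3HAV1 at 21.4 CPM (5.58 and 8.81 CPM), and it held 41942290 counts against 26567501 and 26912208. CD163 was at 0 CPM in it, as in every chondrocyte library. Whether the depth or the level of the regulators has a part in the result was not tested.

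TLR-MSC-CM left the chondrocyte values closer to the resting ones, with PARP9 at 9.05, 8.29 and 6.68 CPM (log2 fold change 0.23, SE 0.293, adjusted p = 1.00 by edgeR) and PARP12 at 14.2, 15.1 and 18.0 CPM. The median of the 4 genes was 0.10, with 0 of the 4 past the adjusted threshold (edgeR and DESeq2; 0.00% of all genes in edgeR) or with an unadjusted p under 0.05 (0.287% of all genes were higher at that p).

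In macrophages, which already carried the most of these transcripts, STING-MSC-CM came with PARP14 at 209, 202 and 161 CPM against 180, 153 and 128 CPM with resting MSC-CM, for media of PC, ORC and AG1. PARP9 was at 135, 140 and 94.9 CPM against 119, 113 and 73.9 CPM. Both were higher in 3 of 3 donors (16.4% of all genes were), with overlapping groups, since cells given AG1 medium held the least in either condition. DTX3L was at 73.0, 88.9 and 55.7 CPM against 73.7, 78.2 and 38.9 CPM and PARP12 at 110, 124 and 99.5 CPM against 112, 142 and 82.4 CPM, each with donors moving in different directions.

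The log2 fold change with STING-MSC-CM in macrophages was 0.31 (SE 0.134, unadjusted p = 0.0409, adjusted p = 0.907 by edgeR) for PARP14 and 0.28 (SE 0.200, adjusted p = 0.907) for PARP9. With the MSC donor as a block it was 0.32 for PARP14, with an adjusted p of 0.120 by edgeR and 0.0263 by DESeq2, in which 348 genes were called, and over all alternatives that p ran from 0.0263 to 1.00. The other 3 genes were not called under the block, PARP9 having an adjusted p of 0.0708 by DESeq2. Without a block 0 of the 4 passed (edgeR and DESeq2; 0.00% of all genes in edgeR) and 1 had an unadjusted p under 0.05, against 2.29% of all genes that were higher. PARP1 was higher in 3 of 3 donors as well, at 78.7, 70.2 and 63.3 CPM against 67.7, 62.2 and 51.8 CPM (log2 fold change 0.23, SE 0.121, adjusted p = 0.907 by edgeR).

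Relative to PARP1 the macrophage genes moved little. The mean log2 ratio of PARP14 to PARP1 was 1.33 (SD 0.060, n = 3) with resting and 1.42 (SD 0.089) with STING-MSC-CM (two-sided exact permutation p = 0.3), and that of PARP9 was 0.72 (SD 0.187) and 0.78 (SD 0.205, exact p = 0.8). TLR-MSC-CM gave PARP14 values of 179, 162 and 160 CPM and PARP9 values of 124, 105 and 88.3 CPM in macrophages. The median log2 fold change of the 4 genes was 0.05 with TLR-MSC-CM and 0.24 for STING-MSC-CM. For TLR-MSC-CM 0 of the 4 passed the adjusted threshold (edgeR and DESeq2; 0.00% of all genes in edgeR) or had an unadjusted p under 0.05 (1.35% of all genes were higher at that p). Without the resting AG1 library these medians were −0.18 and 0.02. In each cell type both media were compared with the same resting libraries.

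**Figure D4:**
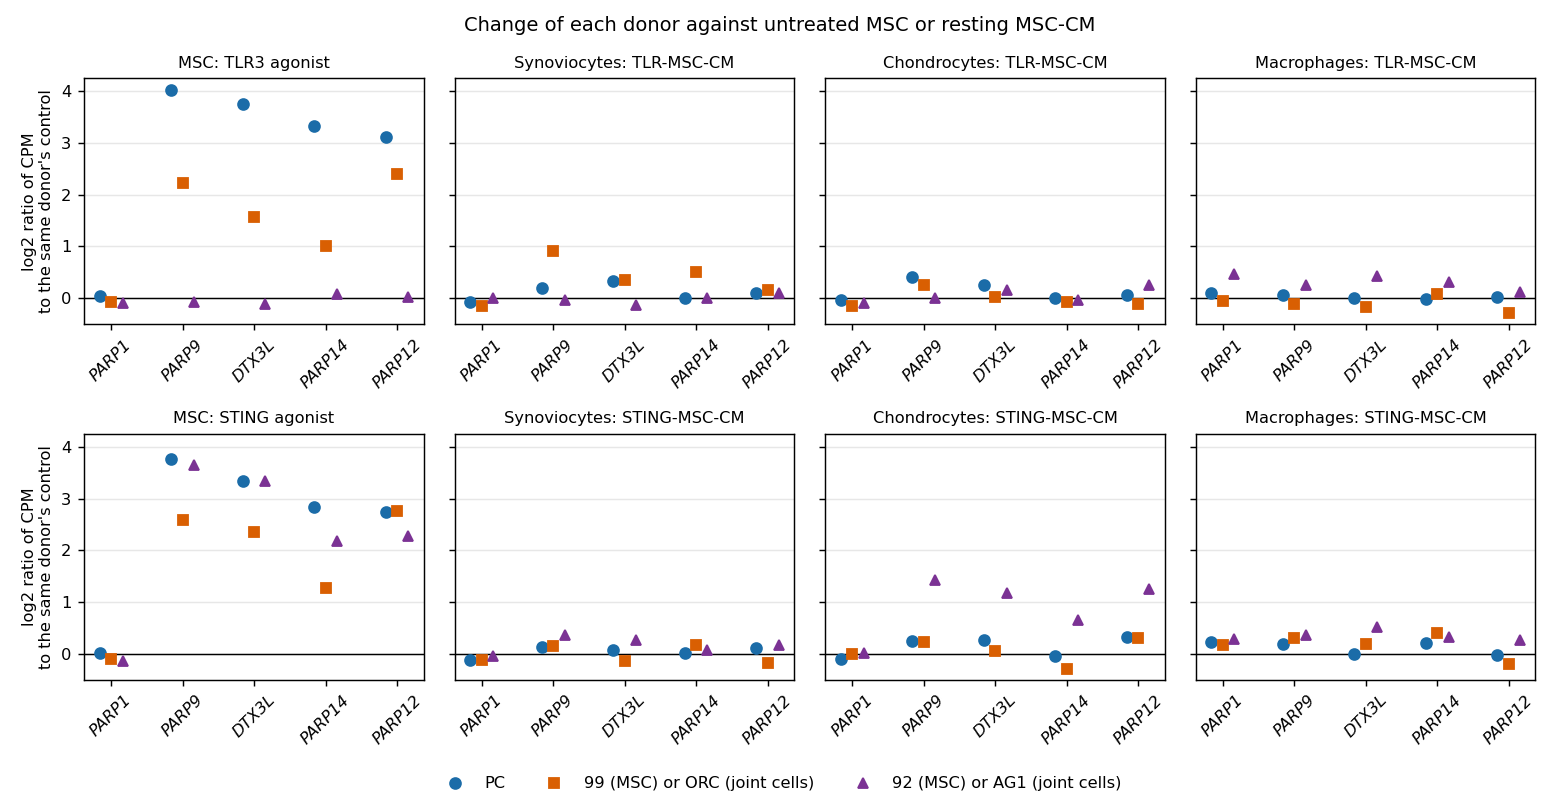
Log2 ratio of CPM to the same donor's untreated MSC (left column) or to joint cells with the same donor's resting MSC-CM (other columns), for the TLR3 arm (top) and the STING arm (bottom); each symbol is 1 donor, and the symbols pair 99 with ORC and 92 with AG1 only to save colours, since the labels do not say whether these are the same horses. The TLR3 arm of MSC spreads from −0.03 to 3.55 in the donors' medians, the STING arm from 2.47 to 3.10, and the donors' medians in joint cells lie between −0.14 and 0.43 except for 1.21 with STING-MSC-CM of AG1 in chondrocytes.

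Differences of the STING-MSC-CM change between cell types were tested by an interaction term over the 27 libraries. For PARP12 the change in chondrocytes exceeded that in synoviocytes by a log2 value of 0.68 (SE 0.298, unadjusted p = 0.0332) and the difference of macrophages minus chondrocytes was −0.71 (SE 0.294, unadjusted p = 0.0243), each with an adjusted p of 1.00 by edgeR. For each of the 6 differences, 0 of the 4 genes passed the adjusted threshold by edgeR or DESeq2, as did 0.00% of all genes by edgeR, and PARP12 in 2 of these was the only one of the 4 with an unadjusted p under 0.05. The changes were thus not shown to differ between the cell types.

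Single libraries labelled NO_ADD or with the cytokines alone, taken here as having no MSC-CM, gave the levels around the cytokines, with no replicate check. Their sample titles name a horse, PC for the synoviocyte library with cytokines and ORC for the others. The labels do not define NO_ADD. For macrophages, the study's text names a non-stimulated control and a control given the cytokines without MSC treatment. It does not use the label NO_ADD for either. In chondrocytes PARP9 was at 19.3 CPM in the NO_ADD library and 6.58 CPM with the cytokines alone, a ratio of 2.94 (95% exact interval 2.53 to 3.42). DTX3L was at 8.48 and 4.33 CPM (ratio 1.96, interval 1.60 to 2.40) and PARP14 at 71.9 and 47.0 CPM (ratio 1.53, interval 1.44 to 1.63). PARP12 had a ratio of 1.37 (interval 1.23 to 1.53) and PARP1 one of 1.39 (interval 1.32 to 1.47). So 3 of the 4 genes were at least 1.5 times higher in the NO_ADD library of chondrocytes than in the library with cytokines alone, against 14.3% of all genes.

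In synoviocytes PARP9 was at 21.6 CPM in the NO_ADD library and 12.6 CPM with cytokines (ratio 1.71, interval 1.501 to 1.96), the only one of the 4 past 1.5 times there, against 8.53% of all genes, and the ratios of the other genes including PARP1 lay between 1.08 and 1.16. In macrophages PARP9 was at 104 and 102 CPM, and the ratios of the 5 genes ran from 0.889 to 1.02, with 0 of the 4 past 1.5 times against 4.12% of all genes. These intervals cover counting error only and compare libraries, not conditions.

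Across the 33 joint cell libraries, taken as deviations from the mean of their cell type, PARP9 and DTX3L again had the highest correlation among the pairs of the 5 genes (Pearson's r 0.855, Spearman's rho 0.889). PARP12 and PARP14 had 0.501, and PARP1 had 0.13 to 0.46 with the others. The genes closest to the mean profile of the 4 among 12457 genes were OAS2, a synthetase that activates RNase L (r = 0.897), HERC5, the ligase for ISG15 (0.868), RNF213, a large ubiquitin ligase (0.859), GBP5, a guanylate-binding protein (0.839), and ZC3HAV1 (0.819). The libraries share the joint cell source and the MSC donors.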

How the data were processed

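Poly-A RNA of 12 MSC and 33 joint cell libraries was sequenced by the authors, whose processing notes name cutadapt 1.12 for trimming, STAR as the aligner, EquCab3.0 as the genome and HTSeq 0.11.0 for counting per protein coding gene. The deposited values are these raw counts, without normalization; the authors' own comparisons used DESeq2. Groups came from the sample labels. CPM were computed here from TMM effective library sizes over each whole table, so levels were tested only within a table. Each cell type was fitted on the 9 libraries of its 3 replicated conditions (CPG on all 12 MSC libraries, cell type levels and interactions on 27 joint cell libraries) with edgeR 4.0.16 in R 4.3.3 (TMM, genes with at least 10 counts in total, glmQLFit and glmQLFTest) and Benjamini-Hochberg adjustment over all genes at 0.05. The SE is the log2 fold change divided by the square root of F. Genes were also counted at the authors' thresholds, an unadjusted p of at most 0.05 with a log2 fold change of at least 2. Levels and ratios to PARP1 were compared by two-sided exact permutation tests (scipy 1.17.1), on log2(CPM + 1) and log2(CPM + 0.5). Correlations of log2(CPM + 1) are descriptions. Intervals and the floor of 3 counts cover counting error only, since reads carry no molecular identifiers.

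The members were named individually; of the other lists, a gene was named where it passed the adjusted threshold or the authors' thresholds, at most 4 per list and comparison. MACROD2 passed the latter in macrophages only, near the floor. Members and lists were chosen with earlier results of these data known. Alternatives were RLE size factors, filterByExpr, no filter, DESeq2 1.42.0, the donor as a block in edgeR and DESeq2, all libraries of a table in one fit, each library left out in turn, and for levels another pseudocount and total counts. One item is not reported here. The scripts were tested on simulated data.

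The donors pair the libraries by design, since same-named MSC libraries came from 1 horse and same-named joint cell libraries received medium of 1 MSC donor. The median correlation across genes of the deviations from condition means was 0.830 within donors in MSC (−0.466 between donors), 0.726 in chondrocytes (−0.678), 0.506 in macrophages (−0.259) and 0.089 in synoviocytes (−0.0298). Taking deviations from a mean of 3 libraries pushes the values between donors to the negative side, so they are no separate evidence of pairing. The lowest value within donors was −0.424 in synoviocytes. No 2 libraries were identical.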

Additional observations from a re-analysis of the deposited data

Results flagged for a closer look

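Under STING-MSC-CM, PARP1 moved away from its level with resting MSC-CM in opposite directions in synoviocytes and macrophages. In synoviocytes it was lower in 3 of 3 MSC donors (log2 fold change −0.11, from 76.8 to 71.7 CPM on average), as were 12.8% of all genes. In macrophages it was higher in 3 of 3 (0.23, from 60.6 to 70.8 CPM), as were 16.4% of all genes. The difference between the 2 changes was 0.33 (SE 0.191, adjusted p = 1.00 by edgeR), so it was not shown to exceed the spread between libraries. No other member had all donors of one cell type on one side and all donors of another on the opposite side with either medium.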

How the results depend on the processing

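The count of the 5 genes with an adjusted p under 0.05 was 0 in each treatment comparison by edgeR. With DESeq2 it was 1 (PARP12) after the TLR3 agonist and 3 (PARP9, DTX3L and PARP12) after the STING agonist in MSC. With DESeq2 and the donor as a replicate block it was 3 after the STING agonist in MSC and 1 (PARP14) with STING-MSC-CM in macrophages. At the authors' thresholds it was 4 after either agonist in MSC. When 1 library was left out, the TLR3 count ran from 0 to 2, with 2 reached without the TLR3 library of donor 92. The block in edgeR changed no call of a member, and in MSC after the TLR3 agonist it lowered PARP14 to a log2 fold change of 1.59, below the authors' threshold.

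Leaving out 1 library turned the sign of small values. PARP1 ran from −0.082 to 0.047 after the TLR3 agonist and from −0.10 to 0.021 after the STING agonist in MSC, and from −0.20 to 0.12 with STING-MSC-CM in chondrocytes, where PARP14 ran from −0.075 to 0.28. In macrophages the median of the 4 genes ran from −0.18 to 0.16 with TLR-MSC-CM and from 0.023 to 0.39 with STING-MSC-CM. The cause was not tested. All cell type levels called with resting MSC-CM kept their call and direction under the alternatives run. With 3 libraries a group and no donor block, small changes of the joint cell genes could not be separated from the spread between libraries. With the block, PARP14 with STING-MSC-CM in macrophages was called by DESeq2 (adjusted p = 0.0263) and not by edgeR. Counts of at least 133 left counting error small.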
